A study of Homo sapiens with 18 samples.

Results

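The genes described here belong to families of zinc-dependent proteases that cut extracellular matrix and cell surface proteins, or to their tissue inhibitors. They are the matrix metalloproteases (MMPs), the ADAMs, the ADAMTS proteases and the TIMPs. All genes of the H2052 count table with such a symbol were taken, which gave 67 of 30954 gene IDs, namely 23 MMPs, 21 ADAMs, 19 ADAMTSs and 4 TIMPs. The symbol rule itself used no measured value, but members were chosen with earlier results of these data known. Of the 67, 51 also have a row in the H226 table, which holds 19284 IDs.

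Polyadenylated RNA was sequenced from H2052 and H226, a pair of human mesothelioma cell lines with Hippo pathway mutations. H2052 cells carry mutations of NF2 and LATS2, and H226 cells lack NF2. Cells received 1 µM VT107, a small molecule that blocks the palmitoylation of TEAD transcription factors, or the same volume share of the solvent DMSO, for 24 h. There were 3 libraries in each of the groups NF1 mutant H2052 in VT107, NF1 mutant H2052 in DMSO, parental H2052 in VT107, parental H2052 in DMSO, H226 in VT107 and H226 in DMSO. All H2052 groups share the NF2 and LATS2 mutations. The NF1 mutant cells were made with Cas9 and guide RNA delivered by lentivirus and selected with blasticidin and puromycin, and the sources used here do not say whether the parental cells carried a control vector. The 2 genotypes also differ in depth and in how their libraries were named, so genotype and library preparation cannot be told apart.

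MMPs and most ADAMs and ADAMTSs hold a zinc ion in the active site with 3 histidines. MMPs are made as inactive precursors, and the activated collagenases, gelatinases and stromelysins cut collagen, denatured collagen and other matrix proteins, while the membrane-type enzymes act at the cell surface. ADAMs are membrane proteins, of which several release growth factors and receptors from cells, and ADAMTSs are secreted and process proteoglycans, procollagen and other matrix proteins. The TIMPs bind the active site, and TIMP3, which stays in the matrix, also inhibits several ADAMs and ADAMTSs. In the pleura these enzymes take part in the turnover of the matrix on which mesothelial cells rest.

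Most proteases on which the results below turn share the active site, and its coding sequence is shown because the symbol rule did not use it. Each stretch is exonic and runs 33 bases from the codon of the first zinc-binding histidine to that of the last, with the 3 histidine codons in capitals, taken from the GENCODE transcript of each gene on GRCh38.
MMP1: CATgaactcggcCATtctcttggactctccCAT
MMP3: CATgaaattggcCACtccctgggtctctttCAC
MMP14: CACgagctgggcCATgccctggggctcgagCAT
ADAM15: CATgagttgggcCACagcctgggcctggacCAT
ADAM19: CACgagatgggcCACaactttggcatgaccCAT
ADAMTS5: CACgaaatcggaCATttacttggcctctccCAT
ADAMTS6: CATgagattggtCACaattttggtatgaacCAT
ADAMTS12: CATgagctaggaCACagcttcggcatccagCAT
Coding sequence was found for 64 of the 67 genes, and the pattern searched (histidine, glutamate, any 2 residues, histidine, any 2 residues, glycine, any 2 residues, histidine) was present in 21 of 21 MMPs, 14 of 19 ADAMTSs, 12 of 20 ADAMs and 0 of 4 TIMPs. Where it was not found, the sequence read lacks this exact pattern, and a site with another residue at the glutamate or the glycine would be missed. The ADAMs without it are those listed as having no active protease site. The ADAMTSs without it are ADAMTS1, ADAMTS4, ADAMTS8, ADAMTS9 and ADAMTS15, which are listed as proteoglycan-cleaving. In MMP1 and MMP3 alike it covers residues 218 to 228, and in MMP14 residues 239 to 249.

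Promoters were read from 250 bases before the gene start to 50 after it in RefSeq on GRCh38.p14. Those of 3 members are shown, chosen after their values were seen from the members that changed with VT107 in the data below. They are ADAMTS12 (chr5:33891941-33892240, minus strand), TIMP3 (chr22:32801455-32801754, plus strand) and MMP14 (chr14:22836335-22836634, plus strand). Capitals mark the AP-1 letters TGANTCA and the TEAD letters GGAATG or CATTCC, searched on both strands.
ADAMTS12: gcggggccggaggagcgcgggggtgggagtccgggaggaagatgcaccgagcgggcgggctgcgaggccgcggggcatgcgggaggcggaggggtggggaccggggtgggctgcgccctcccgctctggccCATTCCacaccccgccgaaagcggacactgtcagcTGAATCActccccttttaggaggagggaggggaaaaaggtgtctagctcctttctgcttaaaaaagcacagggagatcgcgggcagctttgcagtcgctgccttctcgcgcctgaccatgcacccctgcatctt
TIMP3: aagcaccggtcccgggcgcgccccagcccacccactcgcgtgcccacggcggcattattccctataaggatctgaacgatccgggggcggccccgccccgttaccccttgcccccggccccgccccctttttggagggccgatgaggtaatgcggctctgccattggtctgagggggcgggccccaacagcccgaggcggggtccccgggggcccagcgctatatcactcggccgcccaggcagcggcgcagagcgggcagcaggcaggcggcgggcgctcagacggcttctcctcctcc
MMP14: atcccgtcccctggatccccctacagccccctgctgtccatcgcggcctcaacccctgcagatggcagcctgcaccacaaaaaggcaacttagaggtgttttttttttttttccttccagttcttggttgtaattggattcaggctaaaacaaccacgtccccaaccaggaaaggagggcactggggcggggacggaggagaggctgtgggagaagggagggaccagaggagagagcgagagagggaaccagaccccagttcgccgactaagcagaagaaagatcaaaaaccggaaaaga
ADAMTS12 holds CATTCC at position -119 and TGAATCA at position -84 from its start, and neither motif is in the windows of TIMP3 and MMP14. Neither is in the window of TIMP1, which also changed with VT107 and is not shown. ADAMTS12 was called for VT107 in H226 and not in parental H2052 cells, and H226 values may not be those of the gene's transcript, as given below. TIMP3 and MMP14 passed in parental cells only when the replicate number was a block. Other members called in H226 have an entry and are not shown. Of these, ADAM17 holds the TEAD letters at position -227, and ADAM19, ADAMTS2, ADAMTS10 and ADAMTS17 hold neither motif. Over the 35116 promoters of the table, 7.71% hold the AP-1 letters and 14% the TEAD letters. Of the 67 members 39 have an entry, of which 4 hold the AP-1 letters and 5 the TEAD letters. MMP1, MMP3, ADAMTS1 and ADAMTS5 have no entry. A match to such short letters describes the sequence and is no binding site by itself.

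Counts assigned to genes summed to 3285363 to 5489092 in NF1 mutant libraries, 10950284 to 13418485 in parental libraries and 1387223 to 1726786 in H226 libraries. Levels are given as CPM, which scales a gene's counts to the sum of its library, before TMM factors. Within groups most libraries ranked genes alike, but 3 stood apart. Parental DMSO replicate 3 had Spearman correlations of 0.947 and 0.950 with its group, whose other 2 libraries correlated at 0.995. Parental VT107 replicate 3 had 0.917 and 0.923 against 0.988 for the other pair, and NF1 mutant VT107 replicate 1 had 0.787 and 0.816 against 0.978. Some of the results that rest on these libraries are given with and without them. Others are given with all libraries only, among them TIMP4 with VT107 in NF1 mutant cells and the ratios to a floor for MMP10 and MMP2. NF1 itself was at 12.8, 17.0 and 18.3 CPM in NF1 mutant DMSO libraries and at 70.0, 64.6 and 34.4 CPM in parental DMSO libraries. Mesothelial markers were present (8 to 9 of 11 at 1 CPM or more in each H2052 group), while KRT5 was at 0. Of 10 leukocyte markers 3 were at 1 CPM or more in each H2052 group, and the list summed to 184 to 740 CPM, while PTPRC was at or near 0.

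Together the 67 genes took 0.341% of all H2052 counts, and TIMP2, MMP1 and TIMP3 held 67.4% of that share. Averaged over the 12 libraries, 7 members exceeded 100 CPM, 18 exceeded 10 CPM and 33 stayed under 1 CPM. No count fell in any of the 12 libraries on 13 members, namely ADAM2, ADAM6, ADAM7, ADAM28, ADAM29, ADAM30, ADAMTS8, ADAMTS20, MMP7, MMP13, MMP20, MMP21 and MMP26. A further 20 had counts but too few to be tested in H2052, among them the gelatinases MMP2 and MMP9. That left 34 tested in at least 1 comparison and 29 in all 5, with a test requiring 0.5 CPM in every library compared.

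**Figure D1:**
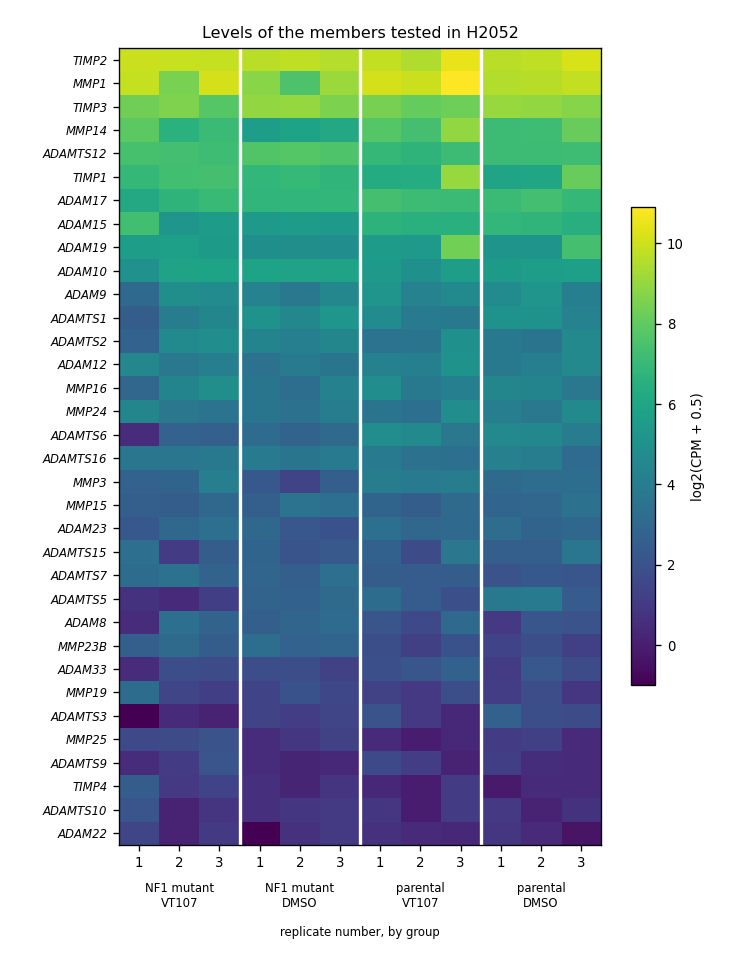
Level of each of the 34 tested members, as log2(CPM + 0.5), in the 12 H2052 libraries, with genes down the page and libraries across, 3 per group. TIMP2, MMP1 and TIMP3 form the bright band, and parental replicate 3 in both treatments is brighter than its group for TIMP1 and ADAM19.

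Per kilobase of exon, the scale on which genes can be compared, MMP1 led with 423 CPM per kb over the 12 libraries, followed by TIMP2 with 228, TIMP1 with 108, TIMP3 with 85.0 and MMP14 with 46.9 CPM per kb. These are means, and that of TIMP1 was raised by parental replicate 3 of both treatments. TIMP1 had a mean of 157 and a median of 120 CPM, and TIMP3 a mean of 391 and a median of 380 CPM. The sheddase ADAM17 had 28.9 CPM per kb, ADAM15 24.7 and ADAMTS12, which cleaves cartilage oligomeric matrix protein, 17.6. The stromelysin MMP3 had 4.71 CPM per kb. The order differed between groups. In NF1 mutant DMSO libraries MMP14 (16.1 CPM per kb) was below ADAM17 (26.3) and ADAMTS12 (22.7), and in both DMSO groups TIMP3 (101 CPM per kb in NF1 mutant and 105 in parental cells) was above TIMP1 (81.1 and 92.9). MMP1 and MMP3 belong to a run of 9 MMP genes that spans 435 kb of chromosome 11, and the other 7 genes of that run collected 26 counts over all 12 libraries, of which 20 were on MMP10.

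**Figure D2:**
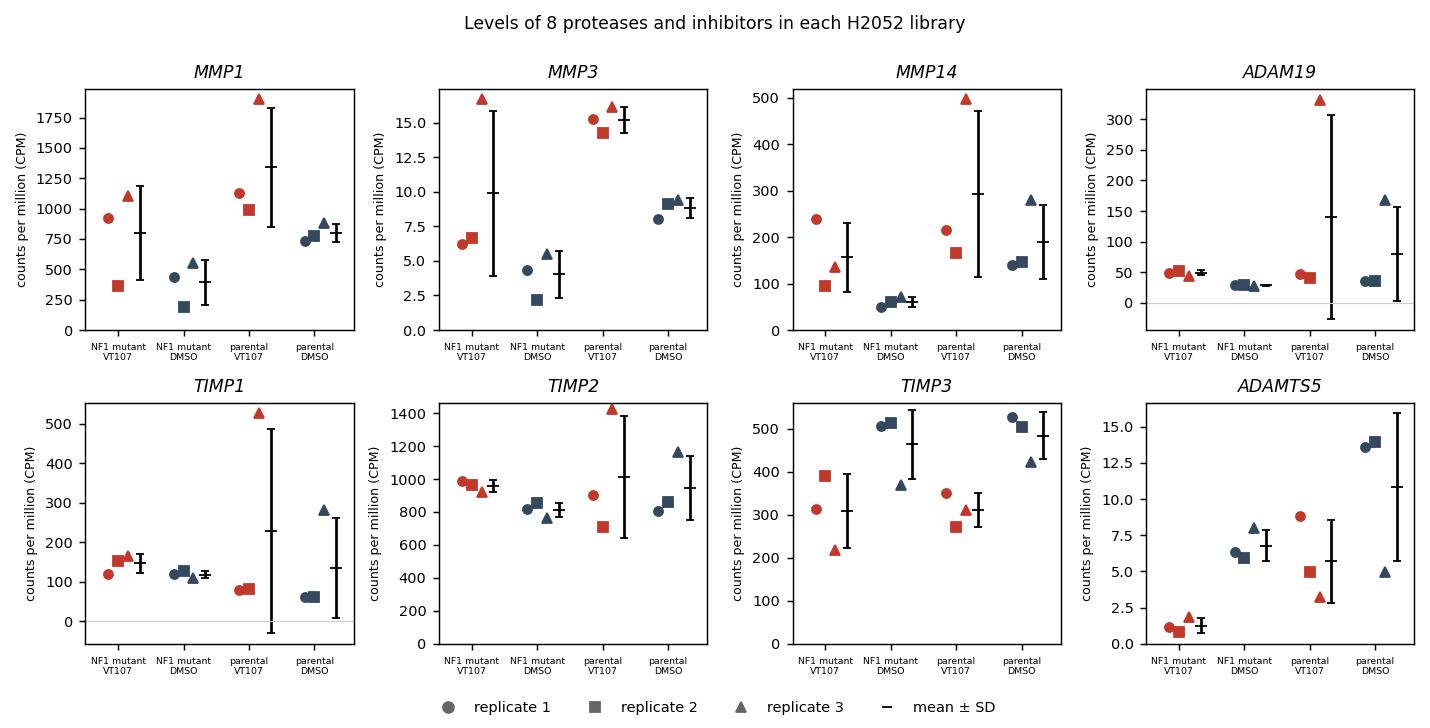
CPM of 8 members in each H2052 library, by group, on axes that include 0, with points for libraries and a bar for the group mean ± SD (n = 3). MMP1 lies at 365 to 1106 CPM in NF1 mutant VT107 libraries against 191 to 549 CPM in NF1 mutant DMSO libraries, and ADAMTS5 at 0.832 to 1.83 against 5.96 to 8.02 CPM.

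The first question was what VT107 did to these genes in parental H2052 cells. The collagenase MMP1, its relative MMP3 and the membrane-type MMP14 were higher after VT107, as was the inhibitor TIMP1, while TIMP3 was lower. In edgeR these 5 passed the test only when the replicate number was a block. Without the block edgeR called 0 of 30 members tested (0% of 12891 genes, of which 474 had an unadjusted p under 0.05), and DESeq2 called 1, MMP3 (0.248% of all genes). With the block it called 5 members, 4 higher and 1 lower, beside 1.67% of all genes (0.846% higher and 0.822% lower). Parental libraries of the same number deviated together from their group means, with correlations of 0.613, 0.489 and 0.796. Numbers 1 and 2 did so across numbers too (0.607 and 0.517), while number 3 went against both. Pairing by number was therefore not shown apart from the difference of the number 3 libraries. The RNA came from bulk cultures, so fewer cells of a type and less RNA per cell cannot be told apart. The study calls its replicates biological and the labels do not say how they were grown, so p-values measure the spread between these libraries.

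MMP1 (ENSG00000196611, chromosome 11 from 102660651 to 102668891 on hg19) had 1129, 991 and 1903 CPM in parental VT107 libraries, against 737, 773 and 885 CPM in parental DMSO libraries. MMP3, which can activate the MMP1 precursor (ENSG00000149968, chromosome 11 from 102706532 to 102714534), had 15.3, 14.2 and 16.1 CPM in VT107, against 8.02, 9.09 and 9.41 CPM in DMSO. For both genes every VT107 library lay above every DMSO library. The log2 fold change of MMP1 was 0.76 ± 0.15 (SE, n = 3 per group, edgeR with the block, adjusted p = 0.0391) and that of MMP3 0.85 ± 0.16 (adjusted p = 0.0356), against 0.80 and 0.84 without the block (adjusted p = 0.999 each).

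TIMP3 (ENSG00000100234, chromosome 22 from 33197687 to 33259030) had 350, 272 and 311 CPM in VT107, against 526, 503 and 422 CPM in DMSO, again with no overlap. It fell by 0.58 on the log2 scale (SE 0.11, edgeR with the block, adjusted p = 0.0391). MMP14, which sits in the cell membrane and activates the MMP2 precursor with the help of TIMP2 (ENSG00000157227, chromosome 14 from 23305766 to 23318236), had 216, 166 and 498 CPM in VT107, against 140, 147 and 281 CPM in DMSO. TIMP1, an inhibitor of most soluble MMPs (ENSG00000102265, chromosome X from 47441712 to 47446188), had 78.1, 80.9 and 526 CPM in VT107, against 61.4, 62.8 and 283 CPM in DMSO. For MMP14 and TIMP1 the groups overlapped through the high replicate 3 of each, and VT107 was above DMSO within each number. Their log2 fold changes with the block were 0.61 ± 0.12 for MMP14 (edgeR adjusted p = 0.0368) and 0.60 ± 0.13 for TIMP1 (edgeR adjusted p = 0.0489), against 0.66 ± 0.46 and 0.76 ± 0.92 without it. Without the block and with 1 library left out, MMP14 ran from 0.08 to 1.104.

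ADAM19, a protease that processes neuregulins, had 46.4, 41.4 and 332 CPM in VT107, against 35.4, 35.5 and 168 CPM in DMSO, with the same high replicate 3 as TIMP1. It missed the threshold with the block (0.61 ± 0.13, edgeR adjusted p = 0.0552). The aggrecan-cleaving pair ADAMTS1 and ADAMTS5, which lie 72.5 kb apart on chromosome 21, had negative estimates that also missed it, -0.62 ± 0.15 (edgeR adjusted p = 0.0831) for ADAMTS1 and -0.85 ± 0.21 (adjusted p = 0.0849) for ADAMTS5. TIMP2 (0.12 ± 0.13) and the main sheddases ADAM10 (-0.19 ± 0.11) and ADAM17 (0.14 ± 0.10) did not pass either. MMP10, stromelysin 2, had 6, 2 and 12 counts in the VT107 libraries and 0 in the 3 DMSO libraries. Its 20 counts together make it at least 6.22-fold higher against a floor of 3 counts over the group. That ratio leans on replicate 3, which stood apart, and was not computed without it.

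Over the 30 members the median log2 fold change without the block was 0.15, beside 0.01 over all genes tested, and 4 tested members did not overlap between the groups (3 higher and 1 lower), where 9.05% of all genes tested did not (2.82% higher and 6.22% lower). Leaving out a number changed the calls. With the block but without both number 1 libraries, or without both number 3 libraries, edgeR called 0 members (51 and 27 genes), and without both number 2 libraries it called 7 (1168 genes, 8.92% of those tested). Without the block and without both number 3 libraries the estimates were 0.61 for MMP1, 0.91 for MMP3, 0.53 for MMP14, 0.49 for TIMP1 and -0.61 for TIMP3, with edgeR adjusted p-values of 0.0992 to 0.211.

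**Figure D3:**
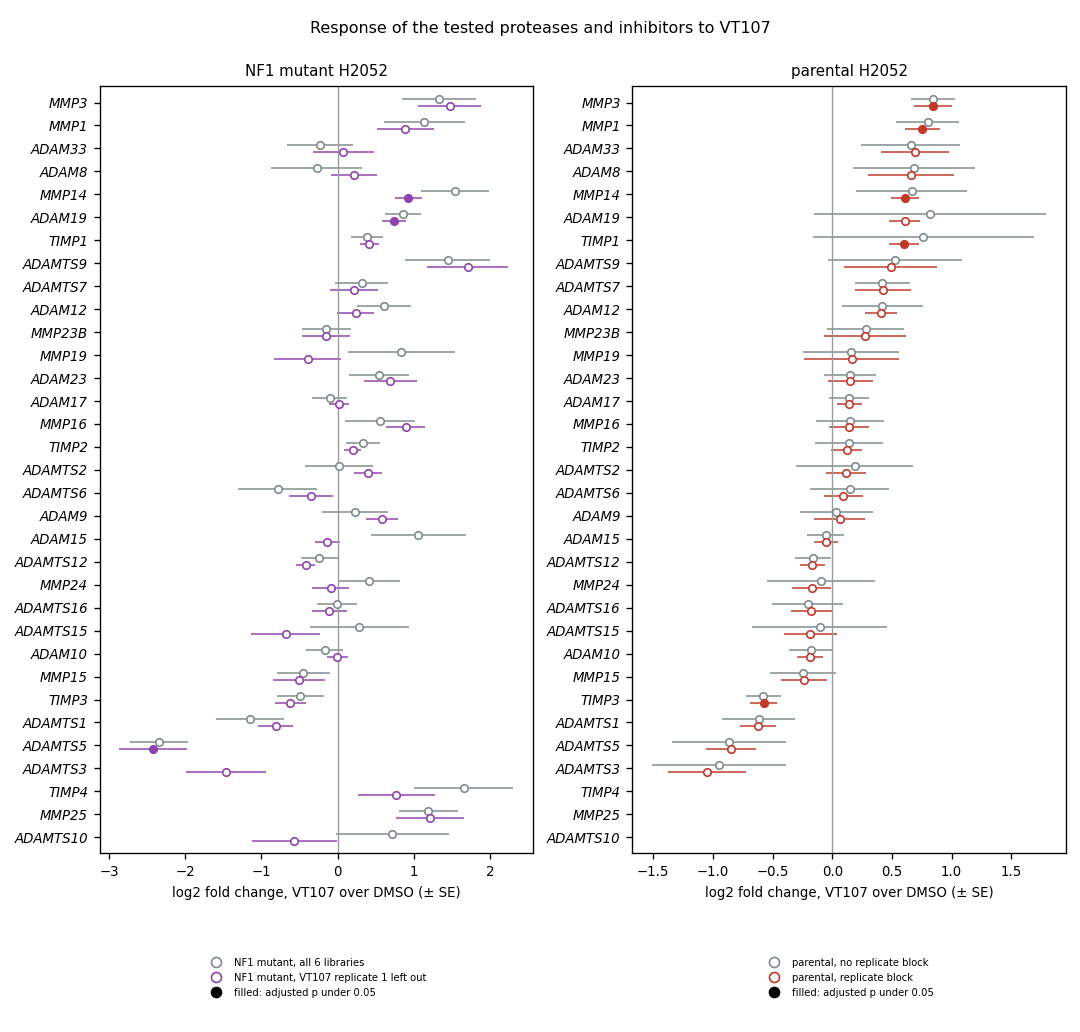
Log2 fold change of VT107 against DMSO for each tested member, with bars of 1 SE, in NF1 mutant H2052 cells (left panel, all 6 libraries and VT107 replicate 1 left out) and in parental H2052 cells (right panel, without and with the replicate block). Filled points have an edgeR adjusted p under 0.05, which on the left are ADAM19, ADAMTS5 and MMP14 and on the right MMP1, MMP3, MMP14, TIMP1 and TIMP3.

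In NF1 mutant cells edgeR called 0 of 32 members tested with all 6 libraries (0% of 11605 genes, 612 with an unadjusted p under 0.05), while DESeq2 called 1, ADAMTS5 (0.172% of all genes), and voomWithQualityWeights 3 (1.27%). Without VT107 replicate 1, the library that stood apart, edgeR called 3: MMP14 and ADAM19 were higher after VT107 and ADAMTS5 was lower, beside 1.59% of all genes (0.876% higher and 0.715% lower). In this genotype 11 tested members did not overlap between the groups, where 15.8% of all genes tested did not, and the median log2 fold change was 0.33 over the members and 0.02 over all genes.

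ADAMTS5, an aggrecanase (ENSG00000154736, chromosome 21 from 28290231 to 28338832), had 1.16, 0.832 and 1.83 CPM in NF1 mutant VT107 libraries, against 6.38, 5.96 and 8.02 CPM in NF1 mutant DMSO libraries. Every VT107 library was several times lower than every DMSO library, on few counts. Its log2 fold change was -2.34 ± 0.38 with all libraries (edgeR adjusted p = 0.421) and -2.42 ± 0.44 without VT107 replicate 1 (edgeR adjusted p = 0.0113). In parental cells it had 8.84, 4.99 and 3.24 CPM in VT107, against 13.6, 13.9 and 4.93 CPM in DMSO, where the groups overlapped.

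MMP14 had 239, 95.5 and 136 CPM in NF1 mutant VT107 libraries, against 48.8, 59.8 and 71.7 CPM in NF1 mutant DMSO libraries, with the highest value in the library that stood apart. Its estimate was 1.54 ± 0.44 with all libraries (edgeR adjusted p = 0.774) and 0.93 ± 0.17 without that library (edgeR adjusted p = 0.0148). ADAM19 (ENSG00000135074, chromosome 5 from 156822542 to 157002783) had 49.6, 52.6 and 44.4 CPM in VT107, against 29.9, 28.5 and 28.3 CPM in DMSO, 2 tight groups that did not overlap. Its estimate was 0.86 ± 0.24 with all libraries (edgeR adjusted p = 0.774) and 0.74 ± 0.15 without replicate 1 (edgeR adjusted p = 0.0261).

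MMP1 and MMP3 were spread more widely here. MMP1 had 925, 365 and 1106 CPM in VT107, against 439, 191 and 549 CPM in DMSO, overlapping overall although VT107 was higher within each number (1.14 ± 0.53, edgeR adjusted p = 0.774). MMP3 had 6.26, 6.66 and 16.7 CPM in VT107, against 4.37, 2.21 and 5.52 CPM in DMSO, with no overlap (1.34 ± 0.49, edgeR adjusted p = 0.774, and 0.0955 without VT107 replicate 1). Neither passed. Among the inhibitors, TIMP1 had 121, 154 and 166 CPM in VT107, against 119, 127 and 110 CPM in DMSO, and TIMP3 had 314, 390 and 219 CPM in VT107, against 506, 514 and 370 CPM in DMSO. For TIMP1 and TIMP3 the groups overlapped, and the estimates were 0.39 ± 0.21 for TIMP1 and -0.49 ± 0.30 for TIMP3. TIMP2 was higher in every VT107 library than in every DMSO library, and edgeR did not call it with all libraries.

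ADAM15, a disintegrin protease, had 156, 35.8 and 45.0 CPM in NF1 mutant VT107 libraries, against 41.5, 45.9 and 43.1 CPM in NF1 mutant DMSO libraries. The high value came from the library that stood apart, and the estimate of 1.06 ± 0.62 with all libraries was -0.13 ± 0.16 without it. ADAMTS6 and ADAM8 were low in the same library, at 0.927 CPM each, against 5.78 CPM or more for ADAMTS6 and 5.65 CPM or more for ADAM8 in the other 5 NF1 mutant libraries. TIMP4, the least expressed inhibitor, had 5.10, 1.46 and 2.13 CPM in VT107, against 1.09, 0.662 and 1.25 CPM in DMSO (1.65 ± 0.65, edgeR adjusted p = 0.774). Its highest value was also in the library that stood apart.

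The difference of the VT107 responses between NF1 mutant and parental cells was tested for 29 members, and edgeR called 0 (0% of 11432 genes, 78 with an unadjusted p under 0.05), as did DESeq2, limma-voom and each other alternative run. The estimate was -1.47 ± 0.70 for ADAMTS5, 0.90 ± 0.66 for MMP14, 0.36 ± 0.62 for MMP1 and 0.11 ± 0.36 for TIMP3. With 1 library left out, MMP14 ran from 0.28 to 1.47 and MMP1 from 0.05 to 0.73. With errors of this size, no member was shown to respond differently in the 2 genotypes, nor to respond alike. This comparison shares its libraries with those described above.

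The second question was how the NF1 mutant cells differed from parental cells in DMSO. In NF1 mutant cells MMP14, MMP1, MMP3, ADAM15 and ADAMTS6 were lower and MMP23B, ADAM8, ADAMTS7 and ADAMTS12 were higher. EdgeR called these 9 of 32 members tested, 4 higher and 5 lower, beside 27.4% of the 12475 genes tested (12.5% higher and 14.9% lower), a share close to that of the members. Of the members tested 13 did not overlap between the genotypes, where 44.4% of all genes tested did not, and the median log2 fold change was -0.21 over the members and -0.01 over all genes. These DMSO libraries are those used above, so the values are not independent of the VT107 responses.

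ADAM15 (ENSG00000143537, chromosome 1 from 155023042 to 155035252) had 41.5, 45.9 and 43.1 CPM in NF1 mutant DMSO libraries, against 116, 108 and 88.6 CPM in parental DMSO libraries, a log2 fold change of -1.22 ± 0.14 (edgeR adjusted p = 0.000576). ADAMTS6 (ENSG00000049192, chromosome 5 from 64444563 to 64777747) had 8.38, 6.40 and 8.02 CPM in NF1 mutant cells, against 23.5, 23.3 and 15.98 CPM in parental cells (-1.42 ± 0.22, edgeR adjusted p = 0.00228). MMP14 had 48.8, 59.8 and 71.7 CPM in NF1 mutant cells, against 140, 147 and 281 CPM in parental cells (-1.63 ± 0.29, edgeR adjusted p = 0.00454). In these 3 genes every NF1 mutant library was below every parental library by a wide margin, and each kept its call with any 1 library left out.

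MMP1 had 439, 191 and 549 CPM in NF1 mutant cells, against 737, 773 and 885 CPM in parental cells (-0.998 ± 0.308, edgeR adjusted p = 0.0412). MMP3 had 4.37, 2.21 and 5.52 CPM in NF1 mutant cells, against 8.02, 9.09 and 9.41 CPM in parental cells (-1.11 ± 0.31, edgeR adjusted p = 0.0281). The groups did not overlap for either gene, but the NF1 mutant values were scattered. The call of MMP1 was lost without parental DMSO replicate 1 (adjusted p = 0.0632), parental DMSO replicate 2 (0.0697) or NF1 mutant DMSO replicate 1 (0.103) in edgeR. That of MMP3 was lost without parental DMSO replicate 1 (adjusted p = 0.0548), parental DMSO replicate 2 (0.0734), NF1 mutant DMSO replicate 1 (0.0884) or NF1 mutant DMSO replicate 2 (0.0847).

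Among the genes that were higher in NF1 mutant cells, ADAMTS12 (ENSG00000151388, chromosome 5 from 33523640 to 33892297) had 204, 215 and 193 CPM, against 142, 143 and 145 CPM in parental cells (0.55 ± 0.11, edgeR adjusted p = 0.00846). Its close relative ADAMTS7, which also cleaves cartilage oligomeric matrix protein, had 6.92, 5.52 and 9.78 CPM in NF1 mutant cells, against 3.64, 4.32 and 4.02 CPM in parental cells (0.91 ± 0.27, edgeR adjusted p = 0.0360). MMP23B had 9.29, 6.18 and 6.77 CPM in NF1 mutant cells, against 2.15, 3.13 and 1.92 CPM in parental cells (1.66 ± 0.30, edgeR adjusted p = 0.00445). No library overlapped in any of the 3 genes. MMP23B has a near-identical copy, MMP23A, with no row of its own, so its counts may include reads of the copy.

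ADAM8, a protease known from leukocytes, had 5.65, 6.84 and 8.52 CPM in NF1 mutant cells, against 1.49, 4.10 and 3.56 CPM in parental cells (1.22 ± 0.39, edgeR adjusted p = 0.0461). The leukocyte list summed to 677 to 740 CPM in NF1 mutant DMSO libraries and 393 to 494 CPM in parental DMSO libraries. These sums rest mostly on few genes, since 3 of its 10 markers were at 1 CPM or more in each genotype, and 4 and 3 were at 0. The part of this list in the ADAM8 value was not tested. ADAMTS12 and MMP23B kept their calls with any 1 library left out. ADAMTS7 lost its call without parental DMSO replicate 1 (adjusted p = 0.120), parental DMSO replicate 2 (0.0876), NF1 mutant DMSO replicate 1 (0.0911) or NF1 mutant DMSO replicate 3 (0.136), and with the replicate block (adjusted p = 0.0571). ADAM8 lost its call without parental DMSO replicate 1 (adjusted p = 0.0942) or without NF1 mutant DMSO replicate 1 (0.0858), 2 (0.126) or 3 (0.152) in edgeR.

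The inhibitors were close between the genotypes apart from TIMP1. TIMP2 had 817, 855 and 764 CPM in NF1 mutant cells, against 804, 860 and 1166 CPM in parental cells, and TIMP3 had 506, 514 and 370 CPM, against 526, 503 and 422 CPM in parental cells. Neither passed (-0.18 ± 0.16 for TIMP2 and -0.02 ± 0.15 for TIMP3). TIMP1 had 119, 127 and 110 CPM in NF1 mutant cells, against 61.4, 62.8 and 283 CPM in parental cells, where the third library decided the direction: the estimate was -0.18 ± 0.54 with all libraries and 0.98 without parental DMSO replicate 3 (edgeR adjusted p = 1.16e-07). ADAM19 (29.9, 28.5 and 28.3 CPM against 35.4, 35.5 and 168 CPM) likewise had an estimate of -1.45 ± 0.58 with that library and -0.25 without it.

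Without parental DMSO replicate 3 edgeR called 17 members in place of 9, beside 50.9% of all genes, and without NF1 mutant DMSO replicate 1 it called 5, beside 14.2%. A fit over all 4 H2052 groups called 1, MMP23B, beside 7.36%. The main sheddases ADAM10 (59.0, 57.6 and 57.2 CPM in NF1 mutant cells, against 44.7, 48.1 and 51.7 CPM in parental cells) and ADAM17 (114, 115 and 119 CPM against 139, 164 and 121 CPM) did not overlap between the genotypes. Both missed the threshold with all libraries (0.30 ± 0.13 and -0.25 ± 0.13, edgeR adjusted p = 0.125 and 0.196). The gelatinase MMP2 had no count in the NF1 mutant DMSO libraries and 5, 12 and 22 counts in the parental DMSO libraries. With these 39 counts it was at least 4.99-fold lower in NF1 mutant cells against a floor of 3 counts over the group. That ratio leans on parental DMSO replicate 3 and was not computed without it.

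**Figure D4:**
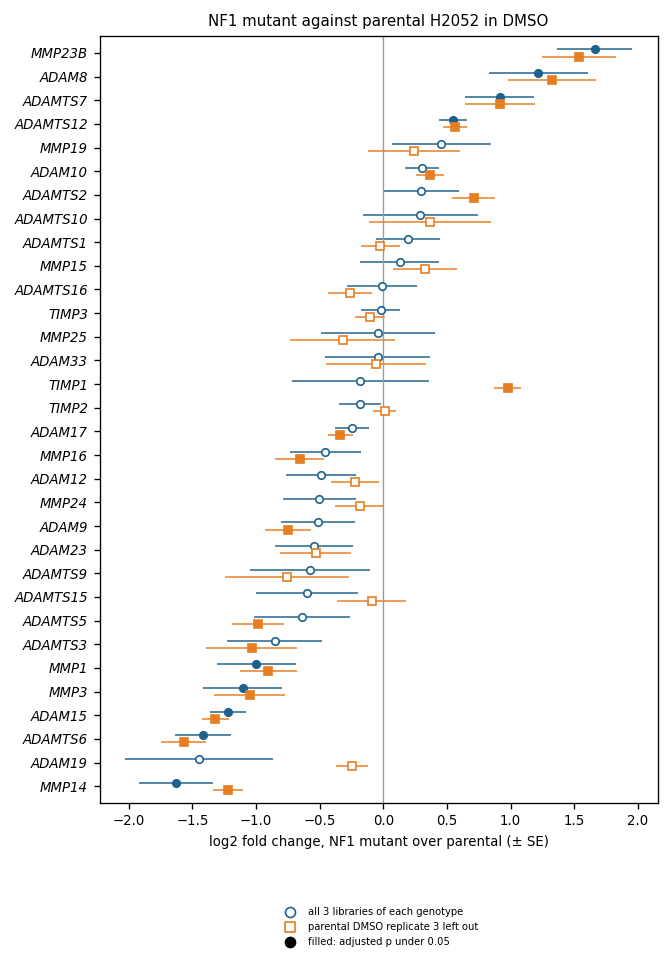
Log2 fold change of NF1 mutant against parental H2052 cells in DMSO for each tested member, with bars of 1 SE, for all 6 libraries and with parental DMSO replicate 3 left out. Filled points have an edgeR adjusted p under 0.05, 9 with all libraries and 17 without that library, and TIMP1 changes sign (-0.18 and 0.98).

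Under VT107 edgeR called 0 of 30 members between NF1 mutant and parental cells (0% of 11654 genes, 1945 with an unadjusted p under 0.05), while DESeq2 called 2 (5.85% of all genes) and voomWithQualityWeights 9 (30.9%). ADAMTS6 had 0.927, 6.24 and 5.78 CPM in NF1 mutant VT107 libraries, against 27.6, 25.8 and 12.6 CPM in parental VT107 libraries, and ADAMTS5 had 1.16, 0.832 and 1.83 CPM, against 8.84, 4.99 and 3.24 CPM. The groups did not overlap for these genes, which were the 2 that DESeq2 called, and edgeR gave -2.37 ± 0.61 for ADAMTS6 (adjusted p = 0.134) and -2.13 ± 0.54 for ADAMTS5 (adjusted p = 0.131). In all 7 tested members did not overlap, where 24.1% of genes tested did not. Without NF1 mutant VT107 replicate 1 edgeR called 1 member, ADAM15 (-1.30, adjusted p = 0.0466), beside 1.46% of all genes, and without that library and parental VT107 replicate 3 it called 10, beside 30.3% of all genes.

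H226 cells gave the other view of VT107, with a limit. TIMP3 lies inside SYN3, which runs on the opposite strand. In H2052 cells SYN3 had 0 counts in all 12 libraries, but in H226 SYN3 had 506, 415 and 558 counts in VT107 libraries and 896, 1132 and 1374 counts in DMSO libraries, while TIMP3 had 41, 40 and 44 counts in VT107 and 89, 96 and 94 counts in DMSO. Among other H226 rows, the mesothelial markers MSLN and KRT18 had 1488, 1639 and 1729 and 3, 2 and 0 counts in DMSO libraries. The TEAD target F3 had 14, 14 and 8 counts in VT107, against 116, 72 and 70 in DMSO. The H226 counts may lie on the strand opposite the gene, which was not tested. The level of a gene overlapped on that strand, 19 of the 51 members with a row, cannot be told apart from its partner's. On that reading the counts of a gene with no partner would not be its own messenger RNA either, so every H226 value below is that of the gene's row in the table and may not be the gene's transcript. MMP1, TIMP1 and ADAMTS1 have no H226 row, and MMP14 and MMP3 had 1 and 3 counts in all.

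With that limit on every gene edgeR called 9 of 29 H226 members tested, 6 higher and 3 lower after VT107, beside 19.6% of 12765 genes (9.08% higher and 10.5% lower). Among members without an overlapping gene it called 4 of 16, beside 18% of 6505 such genes. The median log2 fold change was 0.04 over the members and -0.01 over all genes. The rows of ADAMTS12, ADAMTS15 and TIMP3 were lower, and those of ADAMTS17, MMP16, ADAMTS2, ADAM17, ADAMTS10 and ADAM19 were higher.

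ADAMTS12, which no gene overlaps, had 97, 83 and 87 counts in H226 VT107 libraries, against 240, 216 and 206 counts in H226 DMSO libraries, with no overlap (-1.53 ± 0.14, edgeR adjusted p = 5.48e-08). The versican-cleaving ADAMTS15, also not overlapped, had 67, 43 and 26 counts in VT107, against 188, 123 and 94 counts in DMSO (-1.79 ± 0.23, edgeR adjusted p = 5.78e-06). The procollagen N-proteinase ADAMTS2 had 158, 144 and 193 CPM in VT107, against 82.1, 94.0 and 103 CPM in DMSO (0.74 ± 0.15, edgeR adjusted p = 0.00122). All 3 kept their calls with any 1 library left out. In parental H2052 cells, tested with the block, ADAMTS12 had an estimate of -0.17 ± 0.10 (119, 107 and 144 CPM in VT107, against 142, 143 and 145 CPM in DMSO) and did not pass. In NF1 mutant H2052 cells it had 173, 162 and 146 CPM in VT107, against 204, 215 and 193 CPM in DMSO. Those groups did not overlap, and edgeR did not call it with all libraries. The difference between the lines was not tested.

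TIMP3 and SYN3 were lower together in H226 cells (-1.38 ± 0.19, edgeR adjusted p = 9.75e-06 for TIMP3 and -1.45 ± 0.18, adjusted p = 3.18e-06 for SYN3). ADAMTS17 had 564, 542 and 527 counts in VT107, against 209, 206 and 162 counts in DMSO (1.28 ± 0.13, edgeR adjusted p = 2.77e-07), and its opposite-strand partner CTD-3076O17.1 had an estimate of 1.81. MMP16, a membrane-type MMP, had 252, 296 and 312 counts in VT107, against 90, 111 and 87 counts in DMSO (1.36 ± 0.16, edgeR adjusted p = 1.57e-06), and its partner RP11-586K2.1 had 1.06. In each of these pairs both genes changed in the same direction.

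ADAM17 had 398, 327 and 368 counts in H226 VT107 libraries, against 256, 183 and 197 counts in DMSO libraries (0.56 ± 0.14, edgeR adjusted p = 0.00578), and lost its call without DMSO replicate 2 (adjusted p = 0.0689). It is overlapped on the opposite strand by IAH1 (116, 101 and 124 counts in VT107, against 54, 51 and 85 in DMSO) and RP11-400L8.2, with estimates of 0.60 and 0.93, so its level cannot be told apart from theirs. ADAMTS10, which binds fibrillin, had 46, 66 and 67 counts in VT107, against 25, 29 and 34 counts in DMSO (0.80 ± 0.25, edgeR adjusted p = 0.0256). It lost its call without DMSO replicate 1 (adjusted p = 0.106) or 2 (0.0892) or VT107 replicate 2 (0.102) or 3 (0.114). ADAM19 had 14, 18 and 25 counts in VT107, against 11, 7 and 2 counts in DMSO (1.29 ± 0.44, edgeR adjusted p = 0.0414), and lost it without DMSO replicate 2 (adjusted p = 0.106) or 3 (0.153) or VT107 replicate 2 (0.0725) or 3 (0.187). ADAM19 is overlapped by CYFIP2 (23, 39 and 41 counts in VT107, against 23, 25 and 18 in DMSO), by NIPAL4 and by AC106801.1. TIMP2 and ADAM10 did not pass (0.04 ± 0.15 and -0.35 ± 0.14).

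**Figure D5:**
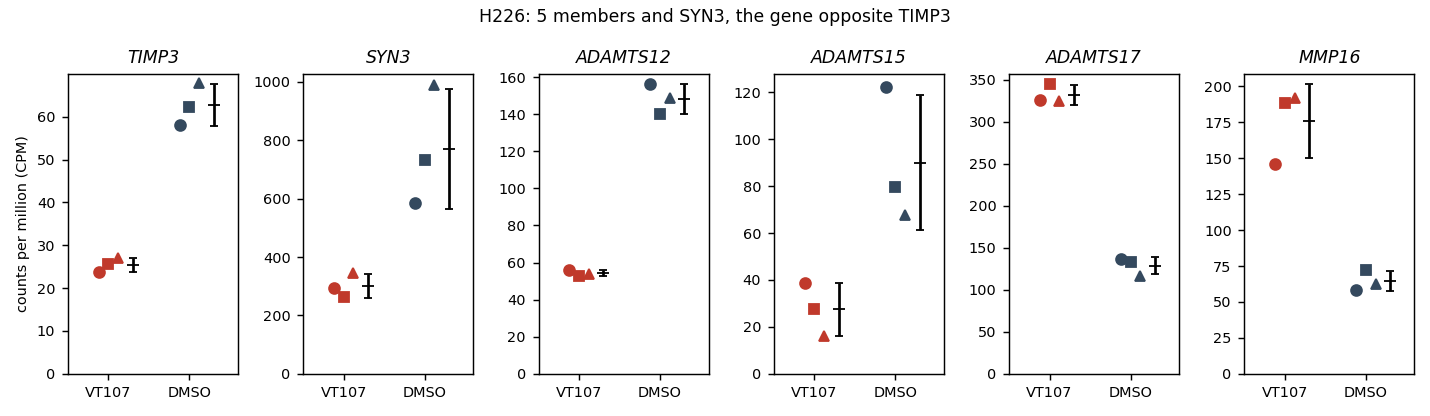
CPM of TIMP3, its opposite-strand partner SYN3, ADAMTS12, ADAMTS15, ADAMTS17 and MMP16 in each H226 library, with points for libraries and a bar for the mean ± SD (n = 3). SYN3, at 0 in H2052, exceeds TIMP3 in every H226 library, and in each gene the VT107 and DMSO points do not overlap.

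Genes that activate or restrain the proteases were read from lists written with earlier results of these data known. Of 11 measured activators and cell-surface regulators of MMPs, 1 was higher in parental cells after VT107 with the block and 0 lower: PLAU, the urokinase that starts the plasmin cascade (1.03 ± 0.15, edgeR adjusted p = 0.0167). Over all genes tested in that fit, 0.846% were higher and 0.822% lower. Without the block edgeR called 0 of the 11.

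Of 8 measured partners of ADAM10 and ADAM17, 2 were higher in NF1 mutant than in parental cells in DMSO and 2 lower, where 12.5% of all genes were higher and 14.9% lower. The higher ones were FRMD8 (0.57), which keeps ADAM17 at the cell surface with its iRhom cofactors, and the tetraspanin TSPAN10 (1.42), and the lower ones the tetraspanins TSPAN14 (-0.94) and TSPAN5 (-0.94). Of 5 measured ADAMTS-like genes, which lack the protease domain, 1 was higher (ADAMTSL4, 1.602) and 1 lower (THSD4, -0.48), beside the same shares of all genes. With VT107 in parental cells, 0 of the 8 partners and 0 of the 5 ADAMTS-like genes passed with the block. For reference, all 6 listed TEAD targets fell in parental cells after VT107 with the block, with log2 fold changes of -1.08 (AMOTL2) to -2.94 (NPPB), and 3 of 11 genes of ERK feedback rose. Over all genes tested with the block, 0.846% were higher and 0.822% lower. Without the block edgeR called 0 genes of these lists.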

How the data were processed

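Trizol-extracted RNA was sequenced on a NextSeq500. The authors deposited raw counts per gene, without normalization, for hg19 genes, and the processing notes name bcl2fastq 2.20.0.422. Aligner, counting tool, annotation release, strand setting and kit were not given in the sources used here. In addition, the H226 table holds the authors' own comparison (fold changes and p-values), which was not used, and 16 columns of siRNA samples matched no described sample and were not used. Counts of repeated IDs were summed (63 in the H2052 table, 10 in the H226 table).

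Testing was done over the whole table, for genes that reached 0.5 CPM in each library compared, by edgeR 4.0.16 (R 4.3.3), with TMM factors, the quasi-likelihood test and Benjamini-Hochberg adjustment at 0.05. The scripts were tested on simulated data. SE was derived as |log2 fold change| over the root of the edgeR F statistic. With 3 libraries against 3, exact permutation cannot reach 0.05, so it was not used. Alternatives were DESeq2 1.42.0, limma 3.58.1 (voom), RLE factors, other filters, the replicate block and libraries left out. Fits without both number 1, 2 or 3 libraries, and those leaving out several libraries that stood apart, were chosen after seeing the data.

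Members and lists were chosen with earlier results of these data known. Named genes are members called in any comparison, the most counted ones, the TIMPs, ADAM10, ADAM17, MMP14 and MMP2. Other members were named after their values were seen. Some results for the listed regulators are not reported here.

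Deviations of same-numbered libraries from their group means correlated at 0.613, 0.489 and 0.796 for the parental libraries. Those of numbers 1 and 2 correlated across numbers too (0.607 and 0.517), and number 3 against them gave -0.717 to -0.591. In no other comparison did every number exceed 0.1.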

Additional observations from a re-analysis of the deposited data

How the results depend on the processing

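Counts of members called for VT107 in parental cells were 5 with the replicate block, 1 with DESeq2, 7 (1168 genes) with the block without both number 2 libraries and 0 to 0 with 1 library left out. For VT107 in NF1 mutant cells they were 1 with DESeq2, 3 with voomWithQualityWeights, 6 (261 genes) with the block without both number 1 libraries and 0 to 3 with 1 library left out. Between genotypes in DMSO they were 17 (6554 genes) with voomWithQualityWeights, 1 with all 4 groups in 1 fit, 16 (6236 genes) without both number 3 libraries and 5 to 17 with 1 library left out. Between genotypes under VT107 they were 2 with DESeq2, 9 with voomWithQualityWeights and 3 (1275 of 11654 genes) with all 4 groups in 1 fit. They were 10 (3846 genes) without parental number 3 and NF1 mutant number 1, and 0 to 1 with 1 library left out. In H226 they ran from 6 to 12 (1646 to 3257 genes). Outside the parental comparison libraries shared only a number, and there the replicate block gave 0 members for VT107 in NF1 mutant cells, 8 (2986 genes) between genotypes in DMSO, 0 under VT107, 0 for the difference of responses and 12 (3257 genes) in H226, where same-numbered libraries correlated at 0.219, 0.010 and 0.032. Without a filter on low counts the median of all genes moved to -0.21 between genotypes in DMSO and to -0.29 under VT107. The causes were not tested.

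Of 853 values of 54 single-gene results under alternatives, 755 kept their direction and side of the threshold, 37 lost a call, 36 gained one and 25 changed sign. Between genotypes in DMSO, TIMP1 was 0.27 with the block, 0.91 with voomWithQualityWeights, 1.03 without both number 3 libraries and -0.54 to 0.98 with 1 library left out. TIMP2 was 0.060 without both number 3 libraries and -0.30 to 0.011 with 1 left out, and TIMP3 was 0.0016 with the filter on 1 group, 0.040 without both number 3 libraries and -0.11 to 0.13 with 1 left out. Under VT107, ADAM15 was 0.0034 with DESeq2, 0.0025 with RLE factors and -1.30 to 0.28 with 1 left out. For VT107 in NF1 mutant cells, ADAM10 was 0.00052 with the block without both number 1 libraries, and ADAM17 was 0.040 with voomWithQualityWeights and -0.24 to 0.021 with 1 left out. For VT107 in parental cells with 1 left out, ADAM19 ran from -0.80 to 2.04, TIMP1 from -0.70 to 1.95 and TIMP2 from -0.16 to 0.36. For the difference of responses, TIMP3 was -0.17 with voomWithQualityWeights and -0.034 to 0.34 with 1 left out, and TIMP1 ran from -1.50 to 1.08. All are log2 fold changes, and their causes were not tested. Depth limits members near 1 CPM, where a library holds few counts, most of all in NF1 mutant and H226 libraries.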

Other observations

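MMP25, a membrane-type MMP, was named after its values were seen. It had 2.55, 2.91 and 3.65 CPM in NF1 mutant VT107 libraries, against 0.911, 1.32 and 2.01 CPM in NF1 mutant DMSO libraries, and the groups did not overlap (1.19 ± 0.39, edgeR adjusted p = 0.774). In parental cells it had 0.824, 0.483 and 0.753 CPM in VT107, against 1.65, 1.86 and 0.822 CPM in DMSO. It fell short of the level for testing in 1 parental library, so neither the parental change nor the difference of responses was tested.

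The gelatinase MMP9 had 2, 2 and 4 counts in NF1 mutant VT107 libraries, against 1, 0 and 1 counts in NF1 mutant DMSO libraries, and 7, 8 and 31 counts in parental VT107 libraries, against 8, 1 and 15 counts in parental DMSO libraries. It was not tested. ADAMTS17, called in H226 cells, had 1 count in the NF1 mutant VT107 libraries together, 3 in NF1 mutant DMSO, 12 in parental VT107 and 12 in parental DMSO.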
